A study of Mus musculus with 23 samples.

Results

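The Snrpn, Ndn and Magel2 domain of mouse chromosome 7 was described here as every methylation window whose midpoint lay in the interval of Snrpn or in the interval that holds Ndn, Magel2 and Mkrn3. A window is a stretch of genome that the authors set by its CpG content, so that CpG-dense stretches give short windows. In the domain a window held 44 to 108 CpGs. The rule took 21 of 333984 windows of the E6.5 table (9 over Snrpn and 12 over the other genes) and 27 of 402812 windows of the E7.5 tables (12 and 15). DNA methylation was measured by post-bisulphite adaptor tagging in 23 libraries of mouse epiblast, the tissue that forms the embryo proper, and of extra-embryonic ectoderm (ExE), a trophoblast tissue that contributes to the placenta. The embryos were wild-type hybrids of C57BL6/Babr and CAST/Ei, written with the maternal strain first (B6/CAST and CAST/B6), or matDKO/CAST embryos, whose B6/129 mothers carried floxed Dnmt3a and Dnmt3b with Zp3-cre, which acts in growing oocytes, and whose fathers were CAST. The matDKO/CAST mothers therefore differed from the B6/CAST mothers both in the deletion and in their 129-derived background, and these cannot be told apart here. At E6.5 the epiblast was represented by 3 B6/CAST, 3 CAST/B6 and 2 matDKO/CAST libraries and the ExE by 2, 2 and 3. Per the protocol these came from a part, set aside before immunoprecipitation, of chromatin cut with micrococcal nuclease and pooled from 4 epiblasts or 8 ExE. At E7.5 each tissue of each wild-type cross was represented by 2 libraries, each from 1 embryo, and only for these were values of maternal and paternal reads used here.

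This domain is the mouse counterpart of the human region affected in Prader-Willi and Angelman syndromes. Snrpn encodes a protein of the small nuclear ribonucleoproteins that take part in splicing, Ndn encodes necdin, Magel2 a relative of necdin that acts with ubiquitin ligases, and Mkrn3 a makorin zinc-finger protein, and all are known to be expressed from the paternal allele. The Snrpn promoter carries a germline differentially methylated region (gDMR), which is methylated in the oocyte and not in sperm and is maintained on the maternal allele after fertilisation. The promoters of Ndn, Magel2 and Mkrn3 lie megabases away and are known as secondary sites, where allelic methylation is set after fertilisation under the control of the gDMR. The protein ZFP57 is known to protect gDMRs in the early embryo by binding the methylated hexamer TGCCGC.

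The sequence at the sites compared is shown first, since the contrast between the gDMR and the secondary promoters rests on them. The stretch below is part of the gDMR on the gene's strand, 327 to 626 bases after the RefSeq start of Snrpn that lies at the gDMR (the gene has others) and inside its first intron (GRCm38 chr7:60004573-60004872, minus strand). It was taken as the 300 bases outside annotated exons that hold most copies of TGCCGC on either strand, and the copies are in capitals. It held 4 copies and 14 CpGs.
Snrpn gDMR: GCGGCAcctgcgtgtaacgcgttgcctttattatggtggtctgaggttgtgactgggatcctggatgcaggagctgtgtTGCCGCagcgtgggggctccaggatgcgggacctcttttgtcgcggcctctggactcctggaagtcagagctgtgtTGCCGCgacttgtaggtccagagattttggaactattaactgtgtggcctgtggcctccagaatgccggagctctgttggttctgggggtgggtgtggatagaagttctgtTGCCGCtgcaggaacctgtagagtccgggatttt
The 250 bases before 3 of the RefSeq starts follow, with CpGs in capitals, because they show how CpG-poor the upstream side of Snrpn is beside the secondary promoters. They lie at chr7:60005200-60005449 on the minus strand (Snrpn), chr7:62376729-62376978 on the plus strand (Magel2) and chr7:62420154-62420403 on the minus strand (Mkrn3). Sequences were those of RefSeq on GRCm38.
Snrpn upstream: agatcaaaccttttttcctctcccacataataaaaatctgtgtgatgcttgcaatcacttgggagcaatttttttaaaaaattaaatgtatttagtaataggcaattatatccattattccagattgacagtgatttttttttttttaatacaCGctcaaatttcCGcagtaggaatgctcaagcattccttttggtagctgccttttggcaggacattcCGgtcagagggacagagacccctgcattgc
Magel2 upstream: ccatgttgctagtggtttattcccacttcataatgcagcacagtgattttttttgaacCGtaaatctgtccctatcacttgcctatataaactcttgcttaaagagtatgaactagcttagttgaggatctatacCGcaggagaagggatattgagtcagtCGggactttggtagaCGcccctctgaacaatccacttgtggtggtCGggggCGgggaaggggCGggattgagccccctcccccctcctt
Mkrn3 upstream: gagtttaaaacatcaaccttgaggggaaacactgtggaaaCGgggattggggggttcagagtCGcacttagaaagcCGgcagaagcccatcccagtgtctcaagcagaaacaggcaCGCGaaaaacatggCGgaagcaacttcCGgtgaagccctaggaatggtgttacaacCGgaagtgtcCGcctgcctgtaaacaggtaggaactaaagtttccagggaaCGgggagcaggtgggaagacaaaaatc
The Snrpn stretch held 3 CpGs, that of Magel2 7 and that of Mkrn3 10, and the corresponding stretch of Ndn held 5. The median over 32851 RefSeq promoters was 6. TGCCGC, searched on both strands, was in none of these 4 upstream stretches and in 8.68% of all promoters over the same length. The E6.5 window of the gDMR (chr7:60002887-60005093, 54 CpGs) held 8 copies and the E7.5 window (chr7:60004319-60007502, 52 CpGs) 9. Of equal lengths tiled along chromosome 7, 0.00778% held as many as the former and 0.00449% as many as the latter, while 12.7% and 17.6% held any. The E7.5 window of Mkrn3 held 3 copies and those at the starts of Ndn and Magel2 none. A match of letters is a description and was not read as binding.

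Regions were defined as the windows within 500 bases of a RefSeq start, and at some starts these were a short and a long window. At E7.5 the window chr7:62348482-62349614 lay inside the single exon of Ndn (1133 bases, 47 CpGs), chr7:62375930-62377627 held the start of Magel2 (1698 bases, 51 CpGs) and chr7:62419066-62420003 the first part of the single exon of Mkrn3 (938 bases, 49 CpGs). The Ndn and Mkrn3 starts themselves lay in the longer windows beside these, chr7:62339532-62348476 (8945 bases) and chr7:62420006-62428115 (8110 bases). At E6.5 the windows differed: chr7:62348653-62351487 covered the 3′ part of Ndn, chr7:62375499-62377627 the start of Magel2 and chr7:62419324-62420220 the start of Mkrn3. The other windows were up to 26389 bases long, so their values average over gene bodies and intergenic sequence. The files held percentages without read coverage. Depth is therefore unknown, and single values carry no interval. Among allelic values 43 of 216 in the domain were missing in epiblast and 21 of 216 in ExE, and 9 of 168 and 4 of 147 were missing at E6.5. The tissue labels were checked on promoters that differ between these tissues. The Elf5 promoter, a trophoblast gene, was at 25.1% to 48.3% in E7.5 ExE and 57.6% to 73.8% in epiblast, and the Pou5f1 promoter, a pluripotency gene, was at 25.5% to 27.97% and 7.41% to 12.3%. Nanog followed Pou5f1 at E7.5, and at E6.5 the tissues overlapped at Elf5 and Nanog. Methylation also differed over the whole genome. The mean over windows was 71.7% to 75.6% in E7.5 epiblast and 56.0% to 59.2% in E7.5 ExE. At E6.5 epiblast it was 65.9% to 74.9% in B6/CAST, 78.6% to 79.4% in CAST/B6 and 53.1% to 54.7% in matDKO/CAST, and in ExE 53.5% in both B6/CAST libraries, 63.8% to 66.2% in CAST/B6 and 39.6% to 41.8% in matDKO/CAST.

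The first question was whether the parental alleles differed in wild-type embryos. At the gDMR they were almost fully separate at E7.5. In epiblast the maternal allele was methylated at 96.5% and 93.7% in the B6/CAST libraries and at 90.6% in both CAST/B6 libraries. The paternal allele was at 3.13% in B6/CAST replicate 2 and at 2.78% and 0% in CAST/B6, and it had no value in B6/CAST replicate 1. In ExE the maternal allele was at 86.1% and 79.9% in B6/CAST and at 81.4% and 86.7% in CAST/B6, and the paternal allele at 3.03%, 6.12%, 2.22% and 2.65% in the same order. Every maternal value exceeded every paternal value, in both directions of the cross, so the allele that was methylated followed the parent and not the strain. The difference between maternal and paternal allele was 80.01 ± 4.67 percentage points in ExE (SD, n = 4) and 89.7 ± 1.59 in epiblast (SD, n = 3).

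In ExE the gDMR window was the 1 window of the domain that passed, of 23 tested (limma across all windows, 80.01 ± 4.10 points, SE, Benjamini-Hochberg adjusted p = 0.0286). Over all windows 0.00722% passed in this comparison (23 of 318358). Without any single one of the 4 ExE libraries the difference was 77.7 to 82.4 points and the window did not pass, in fits that called no window of the genome. Over all alternatives its adjusted p ranged from 0.00365 to 0.533. In epiblast the window lacked a paternal value in 1 library and was outside the fit. With missing values allowed the difference was 89.9 points and the adjusted p was 0.376, in a fit that called no window at all, although 14803 of 305279 had an unadjusted p under 0.05. None of the 13 domain windows tested in epiblast passed in limma, and 0.00838% of all windows did (20 of 238529). The exact sign-flip test on the gDMR alone, two-sided, gave p = 0.125 in ExE (n = 4) and p = 0.25 in epiblast (n = 3), the lowest that 4 and 3 libraries can give.

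The adjoining window towards the 3′ end of Snrpn (chr7:59996274-60004318) lies inside the gene. In epiblast its maternal allele was at 92.5% and 90.0% in B6/CAST and 88.9% and 100% in CAST/B6, and its paternal allele at 27.4%, 21.9%, 26.1% and 16.1%. In ExE the maternal values were 78.9%, 71.9%, 76.9% and 85.4% and the paternal values 29.0%, 27.6%, 50% and 24.4%. The alleles did not overlap in either tissue. The parental difference was 70.0 ± 9.54 points in epiblast (SD, n = 4; limma adjusted p = 0.0556, and 0.0221 to 1 over alternatives) and 45.5 ± 14.2 in ExE (SD, n = 4). Further into the gene, chr7:59985525-59996231 went the other way. There the paternal allele was the more methylated in all 8 libraries, with maternal minus paternal differences of -52.5 to -4.24 points in ExE and -20 to -0.654 points in epiblast, and the fit called it in neither tissue.

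**Figure D1:**
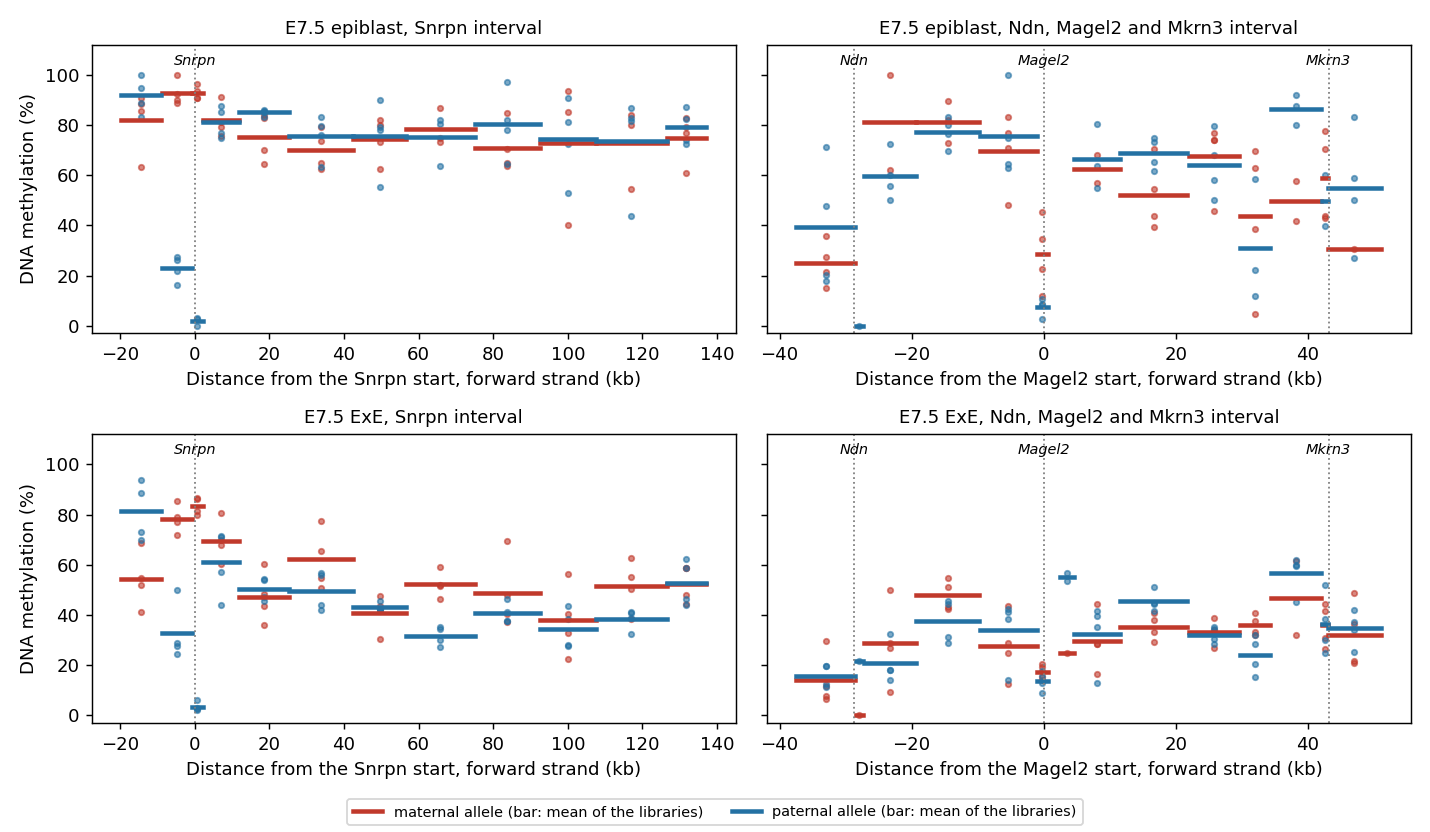
DNA methylation of the maternal (red) and paternal (blue) allele in E7.5 epiblast (top) and ExE (bottom) against distance from the Snrpn start (left) or the Magel2 start (right) along the forward strand, in kb. Bars span each window at the mean of the libraries, points are libraries, and dotted lines mark the RefSeq starts; the alleles separate at the Snrpn start, with paternal values of 0% to 6.12%, and stay apart in the adjoining window to its left.

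At the secondary promoters no separation of that size was seen. At Magel2 the maternal allele in epiblast was at 12.04% and 34.5% in B6/CAST and 22.7% and 45.5% in CAST/B6, and the paternal allele at 8.82%, 10.7%, 2.86% and 8.33%. The maternal allele was higher in 4 of 4 epiblast libraries and above every paternal value, by 21.0 ± 14.0 points on average (SD, n = 4; exact sign-flip test, two-sided, p = 0.125, the smallest this n allows; limma adjusted p = 0.941). The share of all windows with the maternal allele higher in all 4 epiblast libraries was 5.75%. In ExE the maternal values were 15.4%, 13.9%, 19.1% and 20.7% and the paternal values 9.04%, 15.6%, 17.7% and 12.8%. These overlapped, and the difference was 3.54 ± 4.402 points (SD, n = 4; exact p = 0.375).

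Mkrn3 had intermediate values on both alleles. In the short window in ExE the maternal allele was at 41.7% and 44.4% in B6/CAST and 26.6% and 30.7% in CAST/B6, and the paternal allele at 25.0%, 38.3%, 52.1% and 29.9%. The alleles overlapped, with the maternal one higher in 3 of 4 libraries and a mean difference of -0.487 points (limma adjusted p = 0.999). In epiblast only the B6/CAST libraries gave both alleles, at 77.8% and 43.9% for the maternal and 59.9% and 39.8% for the paternal. In 5 of 6 libraries both allelic values of this window were above the value of the same library from all reads. Over all 6 the mean of both alleles lay 18.6 ± 11.4 points above it (SD). Over all windows 24.2% to 28.9% of a library's windows had both alleles above the value from all reads.

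The longer window, which holds the Mkrn3 start, had maternal values of 36.4%, 48.7%, 21.6% and 21.1% and paternal values of 25.4%, 34.1%, 37.0% and 42.1% in ExE. These overlapped, with a difference of -2.72 ± 18.1 points (SD, n = 4), and only 1 epiblast library had both alleles. Both alleles were above the value from all reads in 4 of these 5 libraries, with the mean of both alleles 8.43 points above it. At the Magel2 window and the long Ndn window both alleles were instead below it in 4 of 8 libraries each, beside 15.9% to 17.7% of a library's windows.

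Ndn could hardly be read by allele. Its short window had 3 allelic values in all (0% maternal in B6/CAST ExE replicate 2, 0% paternal in CAST/B6 epiblast replicate 2, 21.9% paternal in CAST/B6 ExE replicate 2), and no library gave both alleles. The longer window that holds the RefSeq start (chr7:62339532-62348476, 8945 bases) differed by -14.4 ± 20.5 points in epiblast and -1.84 ± 14.2 in ExE (SD, n = 4 each), with the maternal allele higher in 1 of 4 and 2 of 4 libraries. The epiblast value rests largely on B6/CAST replicate 1, at -43.7 points, and was -4.64 without it.

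**Figure D2:**
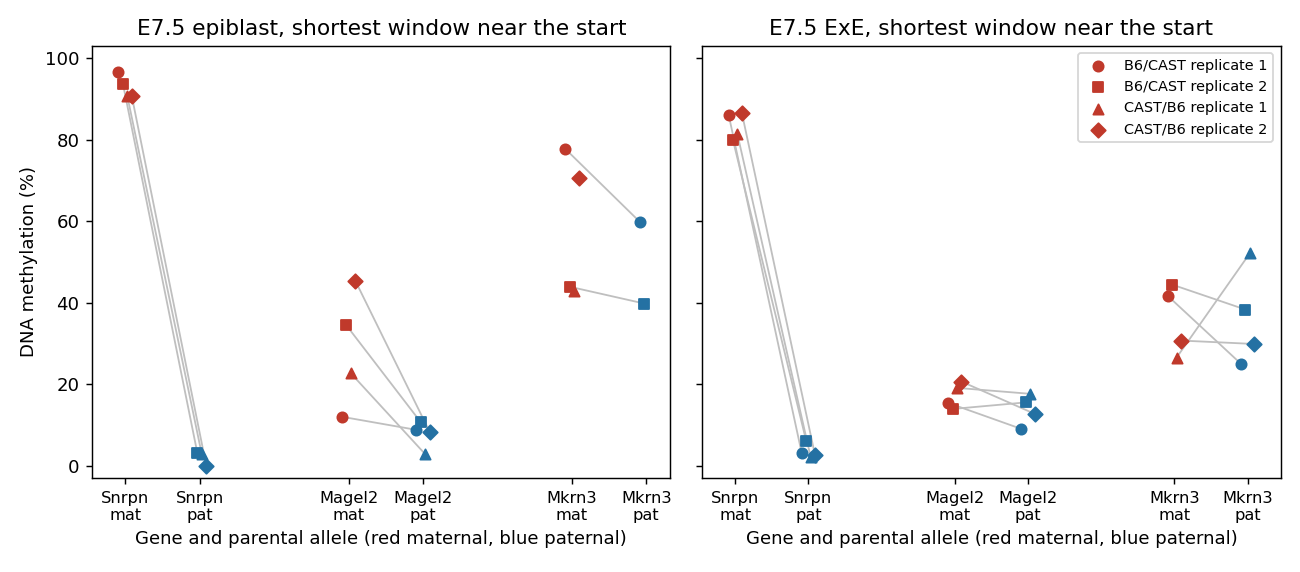
Maternal (red) and paternal (blue) DNA methylation, in percent, of the shortest window within 500 bases of the start of Snrpn, Magel2 and Mkrn3 (for Mkrn3 it does not hold the start) in the 4 epiblast and 4 ExE libraries of E7.5; symbols mark libraries and grey lines join the alleles of 1 library. The lines are steep at Snrpn in every library that has both alleles, slope down at Magel2 in epiblast, and cross at Mkrn3 in ExE.

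The gDMR and the secondary promoters were then contrasted within libraries. With all reads Magel2 averaged 22.3% in epiblast and 19.1% in ExE, so its alleles could hardly differ by as much as those of the gDMR. The parental difference at the gDMR exceeded that at Magel2 in 7 of 7 libraries with both, by 53.5 to 77.7 points and by 70.6 ± 8.70 on average (SD, n = 7; exact sign-flip test, two-sided, p = 0.0156, the smallest 7 libraries allow). Against the longer Ndn window the excess was 87.2 ± 12.9 points, again in 7 of 7 (exact p = 0.0156). Against the short Mkrn3 window it was 81.7 ± 15.7 points in 5 of 5 libraries (exact p = 0.0625, the smallest 5 libraries allow). These libraries were of both tissues, and the labels do not say whether an epiblast and an ExE library came from the same embryo. If some did, fewer independent units stand behind these tests and their p-values are too small.

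Between the tissues, the parental difference at the gDMR was smaller in ExE (73.8 to 84.0 points in 4 libraries) than in epiblast (87.8 to 90.6 in 3), by 9.68 points, and the values did not overlap (exact permutation test, two-sided, p = 0.0286, the smallest these numbers allow). With each library's mean subtracted the exact p was 0.0571. Leaving out 1 library kept the difference at -11.0 to -7.59 points, and the 6 libraries then left could not pass (smallest exact permutation p 0.0667 or 0.1). The limma fit with missing values allowed gave 9.90 ± 6.21 points (SE, adjusted p = 0.901). At Magel2 the difference was 17.5 points smaller in ExE (exact p = 0.0857). Across all windows the limma test of this tissue difference called none of 237650, with 12852 at an unadjusted p under 0.05, and none of the 13 domain windows.

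Over the other windows few differences had 1 direction in every library. Of the 23 domain windows with both alleles in all 4 ExE libraries the maternal allele was higher in all 4 in 4 windows and the paternal in 2, where 6.32% and 6.27% of all windows did so. Of the 13 such windows in epiblast the numbers were 2 and 3, where 5.75% and 6.0% of all windows did so. Apart from the gDMR and its neighbour, the windows with the maternal allele higher in every ExE library were chr7:60061849-60080225, inside Snrpn (20.6 ± 5.92 points, SD, n = 4), and chr7:62406758-62411246, between Magel2 and Mkrn3 (11.7 ± 5.94). The window chr7:62388560-62398741, downstream of Magel2, had the paternal allele higher in all 8 libraries, by 10.2 ± 2.60 points in ExE and 16.8 ± 8.98 in epiblast (SD, n = 4 each). These 3 were named after their values were seen, and limma called none of them.

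The reciprocal crosses separate parent from strain. No domain window differed between the strains of the alleles at E7.5 in limma, of 13 tested in epiblast and 23 in ExE, and no window of the genome did (15868 of 238529 and 27808 of 318358 had an unadjusted p under 0.05). At the gDMR in ExE the strain term was -1.58 ± 4.10 points (SE). With both alleles together no domain window was called between the crosses at either day, and again none of the genome passed. The gDMR at E6.5 epiblast was nevertheless higher in every CAST/B6 library (69.6%, 75% and 64.96%) than in any B6/CAST library (44.5%, 56.9% and 35.9%), by 24.1 ± 6.23 points (SE, limma adjusted p = 0.301). At E7.5 it was on average 11.1 ± 3.98 points lower in CAST/B6 (SE, limma adjusted p = 0.694). In E6.5 ExE the window with the Snrpn start (chr7:60005111-60016722) averaged 87.6% in CAST/B6 and 37.6% in B6/CAST (2 libraries each). It lacked a matDKO/CAST value and was outside the fit. The median of all windows was 8.00 points higher in CAST/B6 at E6.5 epiblast, 11.5 at E6.5 ExE and 0.879 at E7.5. The part of that shift in the E6.5 values was not tested.

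The second question was how the domain differed between epiblast and ExE. With all reads at E7.5, most domain windows were more methylated in epiblast, but the gDMR and the window at the Magel2 start were not called. The gDMR was at 53.6%, 43.6%, 25.1% and 38.8% in epiblast (B6/CAST, then CAST/B6) and at 41.8%, 43.9%, 39.2% and 35.3% in ExE. The tissues overlapped and their means of 40.3% ± 11.8 and 40.0% ± 3.71 (SD, n = 4) differed by 0.265 ± 3.98 points (SE, limma adjusted p = 0.956). At Magel2 epiblast values were 19.8%, 28.1%, 21.2% and 20.2% and ExE values 16.0%, 17.2%, 25.1% and 17.9%, a difference of 3.26 ± 2.99 points (SE, adjusted p = 0.328). Ndn and Mkrn3 each had 1 window called and 1 not. The short Ndn window, inside the exon, was at 26.0% to 32.6% and 21.2% to 27.6%, a difference of 4.57 ± 2.52 points (SE, adjusted p = 0.118). The longer window with the Ndn start was called, at 27.4% to 39.6% in epiblast and 16.8% to 20.2% in ExE without overlap (14.7 ± 3.07 points, SE, limma adjusted p = 0.00206). At Mkrn3 the short exon window was called, at 29.3% to 33.3% and 15.2% to 25.3% without overlap (11.6 ± 2.90 points, SE, limma adjusted p = 0.00515). The longer window with the Mkrn3 start was not, at 25.7% to 36.5% and 18.2% to 28.6% with overlap (7.62 ± 3.71 points, SE, adjusted p = 0.0825).

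In all, 23 of the 27 domain windows passed, all higher in epiblast, by 8.76 to 38.9 points. Over the genome 84.2% of windows passed (322773 of 383556) and 82.9% were higher in epiblast, so the count is near the background. Within the domain the windows near the starts differed less between the tissues than the others. The 6 windows within 500 bases of the 4 starts had differences of 0.265 to 14.7 points (median 6.09), and 2 of them passed. The 21 other windows had differences of 8.76 to 38.9 points (median 29.5), and all 21 passed. Promoters outside the domain also had median tissue differences near 0. The promoters of 9 other genes of chromosome 7 differed by -3.77 to 5.53 points (median 0.0470, 1 passed). Those of 7 genes with other maternal gDMRs differed by -15.96 to 10.6 (median 1.05, none passed in limma). Within libraries the mean of the 21 other windows exceeded that of the 6 by 40.002 ± 3.78 points in epiblast and by 19.5 ± 4.55 in ExE (SD, n = 4 each), and this gap was 20.5 points wider in epiblast with no overlap (exact permutation test, two-sided, p = 0.0286, the smallest 4 against 4 allow). With only the 4 windows that hold the starts it was 19.3 points wider and with only the shortest window near each start 21.1 points wider, each at the same p. The median of all windows was 16.5 points higher in epiblast. With each library's mean subtracted the gDMR came to 16.1 points lower in epiblast (exact p = 0.0571) and Magel2 to 13.1 points lower (exact p = 0.0286). On that scale 17 of 27 windows passed, 14 higher and 3 lower in epiblast, beside 72868 higher and 79853 lower over the genome. Fewer cells of a type and less methylation per cell cannot be told apart in such tissue samples.

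**Figure D3:**
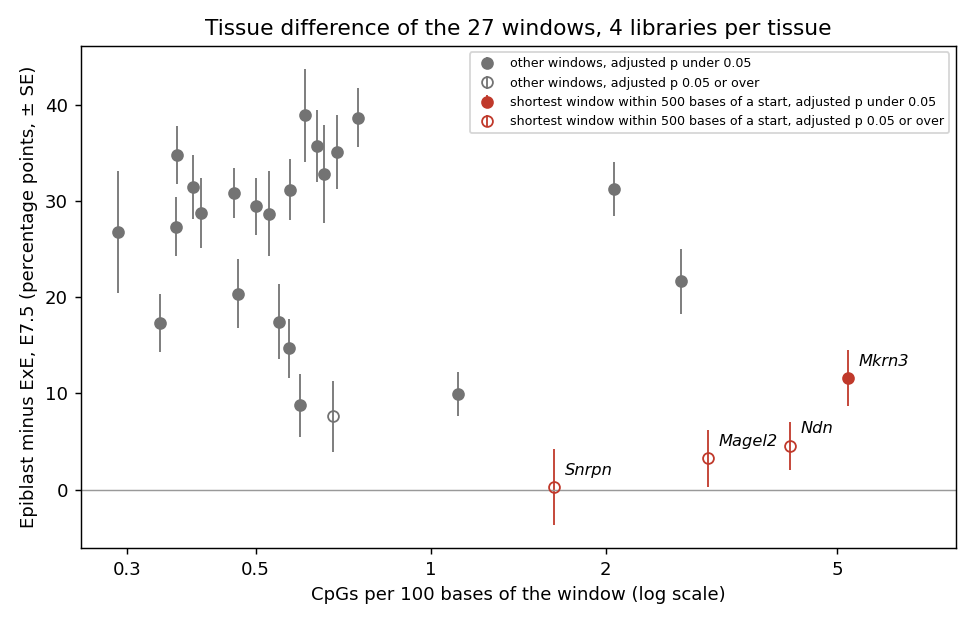
Epiblast minus ExE at E7.5 for the 27 windows of the domain, in percentage points with the limma SE, against the CpGs per 100 bases of each window (log scale). Red marks the shortest window within 500 bases of each start (for Ndn and Mkrn3 it lies in the exon and does not hold the start) and filled symbols an adjusted p under 0.05; Snrpn, Magel2 and Ndn lie between 0.265 and 4.57 points and most other windows above 20.

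At E6.5 the picture in wild-type embryos was similar in form. Of 18 domain windows tested 14 passed, all higher in epiblast, by 16.8 to 37.1 points, and 60.3% of all windows passed (59.6% higher in epiblast). The 4 that did not pass were the gDMR, its 11612-base neighbour upstream and both windows at Ndn. The gDMR was at 35.9% to 75% in 6 epiblast libraries and 38.5% to 60.0% in 4 ExE libraries (10.6 ± 6.10 points, SE, limma adjusted p = 0.145). Over both windows near the start the difference was 10.5 points, 4.05 without B6/CAST ExE replicate 1 and 17.2 without CAST/B6 ExE replicate 1. Ndn was at 25.9% to 56.3% and 21.4% to 35.7% in chr7:62348653-62351487 (12.9 ± 6.42 points, SE, adjusted p = 0.0993). Magel2 and Mkrn3 lacked a value in some library and were outside the fit. Magel2 was at 6.73% to 35.8% in 5 epiblast and 8.05% to 28.6% in 4 ExE libraries, and Mkrn3 at 7.98% to 37.2% in 5 and 4.50% to 22.7% in 3. With each library's mean subtracted 2 of 18 domain windows and 14.9% of all windows passed.

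The third question was what the domain showed in embryos of mothers whose oocytes lacked DNMT3A and DNMT3B, the de novo DNA methyltransferases. In E6.5 epiblast the gDMR was at 7.72% and 8.33% in the 2 matDKO/CAST libraries and at 44.5%, 56.9% and 35.9% in the 3 B6/CAST libraries. The groups were far apart, by 37.8 ± 6.97 points (SE, limma adjusted p = 0.0151). The window passed in 11 of 14 alternatives, with adjusted p from 0.00678 to 0.214. In ExE it was at 8.70% and 18.5% in matDKO/CAST, with no value in replicate 3, and at 47.7% and 42.6% in B6/CAST. There it was not among the windows tested, and with missing values allowed it differed by 31.5 ± 8.89 points (SE, limma adjusted p = 0.147). This window ends just short of the RefSeq start, which lies in the 11612-base neighbour chr7:60005111-60016722. The neighbour was at 61.1% and 29.4% in matDKO/CAST epiblast and 52.4%, 94.1% and 71.6% in B6/CAST, and at 26.2% and 38.2% against 23.5% and 51.7% in ExE, with overlap in both tissues. Over both windows the difference was -32.6 points in epiblast and -18.5 points in ExE, without overlap (exact permutation p = 0.10 and 0.333, the smallest these numbers allow).

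Ndn was also lower. In epiblast chr7:62348653-62351487 was at 5% and 10.7% in matDKO/CAST and at 26.7%, 25.9% and 48.2% in B6/CAST, without overlap (25.7 ± 9.21 points lower, SE, limma adjusted p = 0.0703). In ExE it was at 16.1%, 6.45% and 14.1% against 31.5% and 23.2%, again without overlap (15.1 ± 6.97 points lower, SE, limma adjusted p = 0.209). Such separation was common, since matDKO/CAST was lower without overlap in 49.4% of all windows in epiblast and 47.7% in ExE, and the median of all windows was 16.4 and 12.4 points lower. The window with the Ndn start, chr7:62343940-62348652, was at 1.56% and 3.33% against 14.0%, 31.8% and 4.65% in epiblast and at 8.16%, 3.90% and 3.33% against 19.8% and 11.8% in ExE. Over both Ndn windows the exact permutation test against B6/CAST gave p = 0.10 in each tissue, the smallest 2 against 3 allow. Against both wild-type crosses, Ndn was 23.5 points lower in epiblast (2 against 6 libraries, exact p = 0.0357) and 12.7 points lower in ExE (3 against 4, exact p = 0.0286), without overlap. Against that control the median of all windows was 20.8 and 18.7 points lower, and 47.3% and 42.8% of all windows were lower without overlap, so the Ndn difference was close to that median in epiblast and smaller than it in ExE.

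Magel2 values in matDKO/CAST lay within the wild-type range. They were 12.8% and 15.4% in epiblast, beside 6.73% and 18.9% in B6/CAST with no value in replicate 3. In ExE they were 26.9%, 9.80% and 10.0%, beside 8.05% and 22.1%. Mkrn3 was at 4.94% and 4.55% in matDKO/CAST epiblast and 15.1% and 16.0% in B6/CAST, and at 11.4%, 8.33% and 0% against 4.50% and 5.56% in ExE, so that it was lower without overlap in epiblast and overlapping in ExE. Against B6/CAST alone the exact permutation test could not pass at these numbers. Against both wild-type crosses in epiblast Magel2 was 2.80 points lower (2 against 5 libraries, exact p = 0.81) and Mkrn3 15.7 points lower without overlap (2 against 5, exact p = 0.0952).

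**Figure D4:**
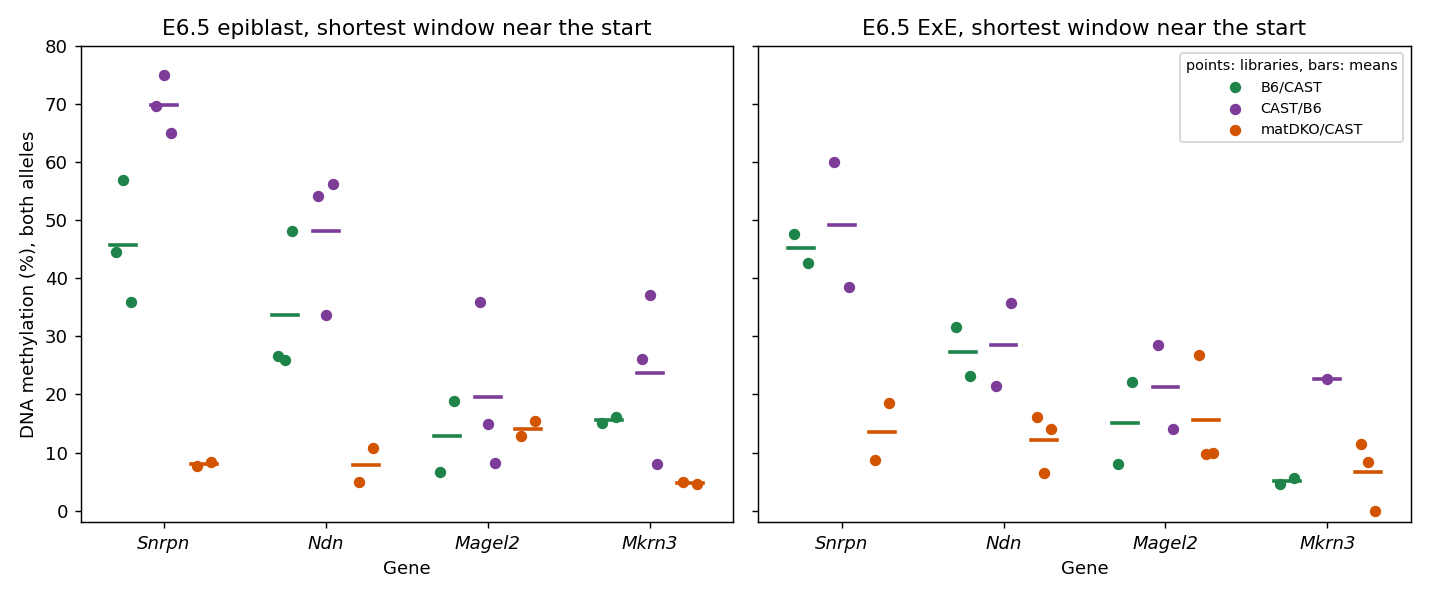
DNA methylation of both alleles together, in percent, in the shortest window within 500 bases of each start at E6.5, by cross (B6/CAST green, CAST/B6 purple, matDKO/CAST orange); points are libraries and bars are group means. In matDKO/CAST Snrpn lies at 7.72% to 18.5% and Ndn at 5% to 16.1%, below every wild-type library, while Magel2 lies among them.

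The difference at the gDMR was also set against that at the secondary promoters within libraries. With all windows within 500 bases of a start, the gDMR minus Magel2 was 3.49 and 21.6 points in matDKO/CAST epiblast and 34.8 to 64.3 points in the 5 wild-type libraries of both crosses that had these windows (exact permutation test, two-sided, p = 0.0476, the smallest 2 against 5 allow). The gDMR minus Mkrn3 was 14.3 and 29.5 points against 33.4 to 56.6 (exact p = 0.0476). The gDMR minus Ndn was 11.8 and 31.1 points against 27.3 to 46.8 in 6 libraries, and these overlapped (exact p = 0.143). In ExE the values for Magel2 were -9.43 and 18.6 points against 25.03 to 47.9 in 4 libraries (exact p = 0.0667, the smallest these allow), those for Mkrn3 6.01 and 20.04 against 31.1 to 41.6 in 3 libraries (exact p = 0.1, the smallest), and those for Ndn overlapped (exact p = 0.267). With only the shortest window near each start, a choice made after seeing the data, the difference between matDKO/CAST and wild-type epiblast was -47.2 points for Magel2 in place of -33.9, and -34.3 in place of -21.01 for Mkrn3. In these contrasts the control holds the CAST/B6 cross, which differs from matDKO/CAST in the direction of the cross too. Against B6/CAST alone the epiblast difference was -25.7 points for Magel2 and -13.7 for Mkrn3 without overlap (2 against 2 libraries each, exact p = 0.333, the smallest possible), and -12.5 for Ndn with overlap (2 against 3, exact p = 0.6). Magel2 and Mkrn3 started from 12.8% and 15.6% on average in their short windows in B6/CAST epiblast and the gDMR from 45.8%, so that neither could fall by as many points as the gDMR did.

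Across the domain in epiblast, 4 of 12 windows tested passed, all lower in matDKO/CAST, where 23.4% of all windows passed (45064 of 192419). Besides the gDMR they were chr7:60099428-60121919 and chr7:60122333-60138403 inside Snrpn (differences of -35.1 and -27.05 points) and chr7:62411793-62419305, which reaches the 3′ end of Mkrn3 (-37.3 points). The first of these was at 17.4% and 43.3% in matDKO/CAST and 48.1%, 68.0% and 80.4% in B6/CAST. The second was at 39.3% and 47.6% against 69.2%, 59.5% and 82.7%. The third was at 22.5% and 31.6% against 59.7%, 69.3% and 64%. None of the 3 overlapped with B6/CAST, and they passed in 4, 5 and 6 of 14 alternatives. Just 1 domain window passed without the unnumbered B6/CAST library, without CAST/B6 replicate 3 or without matDKO/CAST replicate 1, in fits that called 5.44%, 13.3% and 23.6% of all windows. Without B6/CAST replicate 3, CAST/B6 replicate 1 or CAST/B6 replicate 2, 2 domain windows passed, beside 10.1%, 14.1% and 12.5% of all windows. Groups did not overlap, with matDKO/CAST lower, in 7 of 12 complete windows in epiblast and 4 of 18 in ExE, beside 49.4% and 47.7% of all windows. With each library's mean subtracted the gDMR in epiblast was 21.1 points lower (limma adjusted p = 0.214) and no window passed. In ExE limma called none of the 17 domain windows and none of 254322 in all, with 65546 at an unadjusted p under 0.05.

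Other promoters gave the scale for these values. Of 10 promoters of genes with maternal gDMRs listed for comparison 7 were in the promoter table. The 3 of them with both alleles in all libraries (Peg3, Zrsr1 and Kcnq1ot1) passed the parental test in both tissues. Their differences were 89.2 to 93.9 points in epiblast and 83.1 to 92.8 in ExE. The Snrpn window, which also holds flanking sequence, gave 80.01 points in ExE (n = 4) and 89.7 in epiblast (n = 3). The part of the flank in these values was not tested. In matDKO/CAST epiblast 5 of the 7 were tested and were 19.8 to 53.5 points lower, and 1 passed. The start window of such a gene need not hold its gDMR, and at Grb10 matDKO/CAST ExE differed from B6/CAST by -1.67 ± 5.62 points (SE). Of 11 other promoters of the same chromosome, 9 were in the table. None of the 4 tested in epiblast or of the 7 tested in ExE passed the parental test. Among them Peg12, the neighbouring imprinted gene, had a maternal excess of 17.6 ± 4.85 points in epiblast (SE, adjusted p = 0.941) and of 0.0743 in ExE.

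The 2 days can be set side by side only, since the windows, the number of embryos per library and the preparation of the DNA differed. At the gDMR the mean of all reads in wild-type epiblast was 57.8% ± 15.1 at E6.5 (SD, n = 6) and 40.3% ± 11.8 at E7.5 (SD, n = 4), and in ExE 47.2% ± 9.33 (SD, n = 4) and 40.0% ± 3.71 (SD, n = 4). Magel2 averaged 16.9% ± 11.7 (SD, n = 5) at E6.5 and 22.3% ± 3.93 (SD, n = 4) at E7.5 in epiblast, and 18.2% ± 9.01 and 19.1% ± 4.08 (SD, n = 4 each) in ExE. Outside the shortest window near each start the median level of the domain in epiblast was 71.0% at E6.5 and 71.7% at E7.5, and in ExE 40.7% and 41.7%.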

How the data were processed

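Methylation was measured by post-bisulphite adaptor tagging. Per the labels and the study's methods, the authors trimmed reads with Trim Galore (0.4.4 in the submitters' notes), aligned them with Bismark (0.20.0 in those notes) to GRCm38 with SNP positions masked, split reads by allele with SNPsplit (only the E7.5 allelic values were used here), and deposited percent methylation per window set by CpG content, with no coverage. Allelic values therefore rest only on SNP-carrying reads, and matDKO/CAST had extra alignment steps for 129 alleles.

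Here, autosomal windows with a value in every library of a comparison were tested with limma 3.58.1 (R 4.3.3) on percentage points, with a cross term, and p-values were Benjamini-Hochberg adjusted over all windows (threshold 0.05). The tests were checked on simulated data. There the allelic and matDKO/CAST fits found large changes and missed moderate ones. In these fits a window that did not pass is therefore no evidence of equal methylation. Exact permutation tests (27 of single regions and 30 of contrasts, unadjusted) used a region's windows within 500 bases of its RefSeq start. Named were the 4 genes, their start windows, windows that passed, and up to 3 examples per comparison list. Nothing says that libraries of 1 group are from separate litters, so p-values measure the spread between these samples. Members and lists were chosen with earlier results of these data known.

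Alternatives were a logit scale, moderated variance with a trend, missing values allowed, each library left out, other region rules, the library mean subtracted, no cross term, a replicate block and both crosses as the control. The shortest window within 500 bases of a start, the GENCODE start, and the contrasts by other window rules were chosen after seeing the data. 1 B6/CAST epiblast column carried a replicate number that no sample title of its group has. It was matched to its group only and is called unnumbered here.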

Additional observations from a re-analysis of the deposited data

Results flagged for a closer look

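The parental difference at the Snrpn gDMR was 9.68 points smaller in ExE than in epiblast at E7.5 (-9.68 as ExE minus epiblast), which drew attention as a difference of one contrast between 2 tissues that passed its own test (exact permutation test, 4 against 3 libraries, p = 0.0286, the smallest possible). Maternal means were 83.5% in ExE and 92.9% in epiblast, and paternal means 3.51% and 1.97%. The epiblast value rests on 3 libraries. Leaving out 1 library kept the difference at -11.0 to -7.59 points, with too few libraries left to pass. With each library's mean subtracted the exact p was 0.0571, and the limma test with missing values allowed gave adjusted p = 0.901.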

How the results depend on the processing

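Of the values recomputed under each alternative, 552 kept their direction and side of the threshold, 58 fell below it, 11 rose above it, 34 changed sign and 18 moved. The count of 552 is no measure of robustness, since some exact tests could not pass at their numbers of libraries. Among these were the parental tests within a tissue and those of matDKO/CAST against B6/CAST. For them the side of the threshold was fixed beforehand wherever the alternative had no more libraries. With each library's mean subtracted the E7.5 tissue difference became -16.1 points at the gDMR, -6.70 at Ndn, -13.1 at Magel2 and -6.72 at Mkrn3, that at E6.5 became -5.99, -9.17 and -10.1 at the gDMR, Ndn and Mkrn3, Mkrn3 in matDKO/CAST epiblast became 5.51, and the tissue difference of the parental difference at the gDMR became -9.87 (exact permutation p = 0.0571). On the logit scale the E7.5 tissue difference at the gDMR was -0.0123 and Mkrn3 in matDKO/CAST ExE -0.0997. With windows taken by midpoint Magel2 gave 30.2 between tissues at E6.5 and -1.51 (epiblast) in matDKO/CAST, both from the neighbouring gene-body window chr7:62377628-62379729 alone, since the start window lacked values, and -7.80 (ExE) over both windows. With both crosses as the control the gDMR region in epiblast was -38.7, Magel2 -2.80 (epiblast) and -2.63 (ExE), and Mkrn3 -4.34 in ExE. The causes were not tested.

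The 1 domain window called for parental difference in ExE became 0 with a trended and robust variance, with missing values allowed, under a replicate block and without any 1 library (0 to 0), in fits that called 0 windows of the genome, and epiblast gave 1 with no cross term. The 14 calls between tissues at E6.5 became 2 with the library mean subtracted, where the share of all windows called fell from 60.3% to 14.9%. The 4 calls in matDKO/CAST epiblast became 0 on the logit scale, with the library mean subtracted and under the replicate block, where no window of the genome was called, and 1 to 5 when 1 library was left out.

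Leaving out 1 library gave -11.0 to -7.59 for the tissue difference of the parental difference at the gDMR, where 6 libraries could not pass (smallest exact permutation p 0.0667 or 0.1), and -10.6 to 0.818 at Mkrn3. The parental difference in ExE ranged from -8.23 to 1.92 at Ndn and from -6.74 to 4.70 at Mkrn3. The tissue difference ranged from -4.16 to 5.32 at the gDMR at E7.5, from 4.05 to 17.2 there at E6.5 and from -6.01 to 2.18 at Magel2 at E6.5. In matDKO/CAST Magel2 ranged from -4.83 to 7.37 in epiblast and from -6.56 to 7.51 in ExE, and Mkrn3 from -0.860 to 4.85 in ExE.

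Same-numbered epiblast and ExE libraries correlated at 0.000220 to 0.0506 in their deviations from group means. These values cannot decide whether the numbers pair libraries, since depth is unknown and noise in single windows could hide a pairing. The replicate block left 10 of 18 domain windows called between tissues at E6.5, beside 31% of all windows. A minimum on coverage could not be tried, since no coverage is given.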
